A study of Mus musculus with 51 samples.

Results

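The mammary gland (MG) of unirradiated BALB/c females was compared between mice taken 1 month and mice taken 4 hr after the last of 4 weekly sham exposures. The arrays were chosen by their titles, which gave 3 sham arrays at 1 month and 3 at 4 hr, 6 of the 51 arrays of the series, and all 22626 probe sets were tested. No value of the arrays entered this choice.

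All 6 mice were virgin females, 8 weeks old when the sham regimen began, and carried no transgene or induced mutation. The fourth pair of glands was taken with its inguinal lymph nodes removed, and each array held the RNA of 1 mouse. The groups used beside them were BALB/c females given 4 weekly whole-body X-ray doses of 7.5 cGy (LD; 4 arrays at 4 hr, 2 at 1 month) or 1.8 Gy (HD; 4 and 4 arrays), and C57BL/6 sham females (3 arrays at 4 hr, 4 at 1 month). The regimen, strain and tissue were thus the same in the compared groups, and what differed was about 1 month of age and of time after the last handling, which cannot be told apart. The study did not synchronise the estrous cycle, and its part in any difference below was not tested.

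The virgin gland is a tree of ducts, with luminal cells inside and contractile basal cells outside, set in a fat pad that holds white and some thermogenic fat, fibroblasts, vessels and macrophages. Ductal growth that began at puberty comes to rest in the young adult, after which epithelium and stroma are remodelled with each estrous cycle. Macrophages line the ducts, clear dying cells and degrade matrix, and lysosomal enzymes and receptors for lipids mark those that have taken up debris.

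The arrays held the transcripts of such a gland. The luminal keratin gene Krt18 lay between 11.39 and 12.05, the adipokine gene Adipoq between 13.27 and 13.66 and the casein gene Csn3 between 10.07 and 11.42, in log2 units after RMA (robust multi-array averaging, the scale of all levels here). Array medians lay between 6.22 and 6.32, and pairs of the 6 arrays correlated between 0.9822 and 0.993 over all probe sets. The genes of skeletal muscle, a tissue under the gland, had a mean level of 6.53 in 4 hr replicate 1 against 4.95 to 5.52 in the other 5 arrays, so that results were also computed without this array. All BALB/c MG arrays shared 1 hybridisation plate, and the mean plate column was 2.67 in either sham group.

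No probe set passed an adjusted p of 0.05 between 1 month and 4 hr (limma, Benjamini-Hochberg over 22626 probe sets, 0.0% called), and the smallest adjusted p was 0.571. At an unadjusted p under 0.05 stood 1446 probe sets, 6.39% of those tested. Differences are given as the 1 month mean minus the 4 hr mean in log2 units. Their median standard error (SE) was 0.138 and the median 95% interval, unadjusted, reached 0.291 to either side with 3 arrays in each group. After adjustment over 22626 probe sets, larger differences than this could also go uncalled. A wider rule, an unadjusted p under 0.01 with a difference beyond 0.58 (1.5-fold), held for 109 probe sets (0.482%), 48 of them higher at 1 month (0.212%) and 61 lower (0.27%). These were probe sets of 33 genes with higher and 49 with lower levels, and 19 of the probe sets had no single gene name. Every gene below is therefore described by its values and none is called changed.

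**Figure D1:**
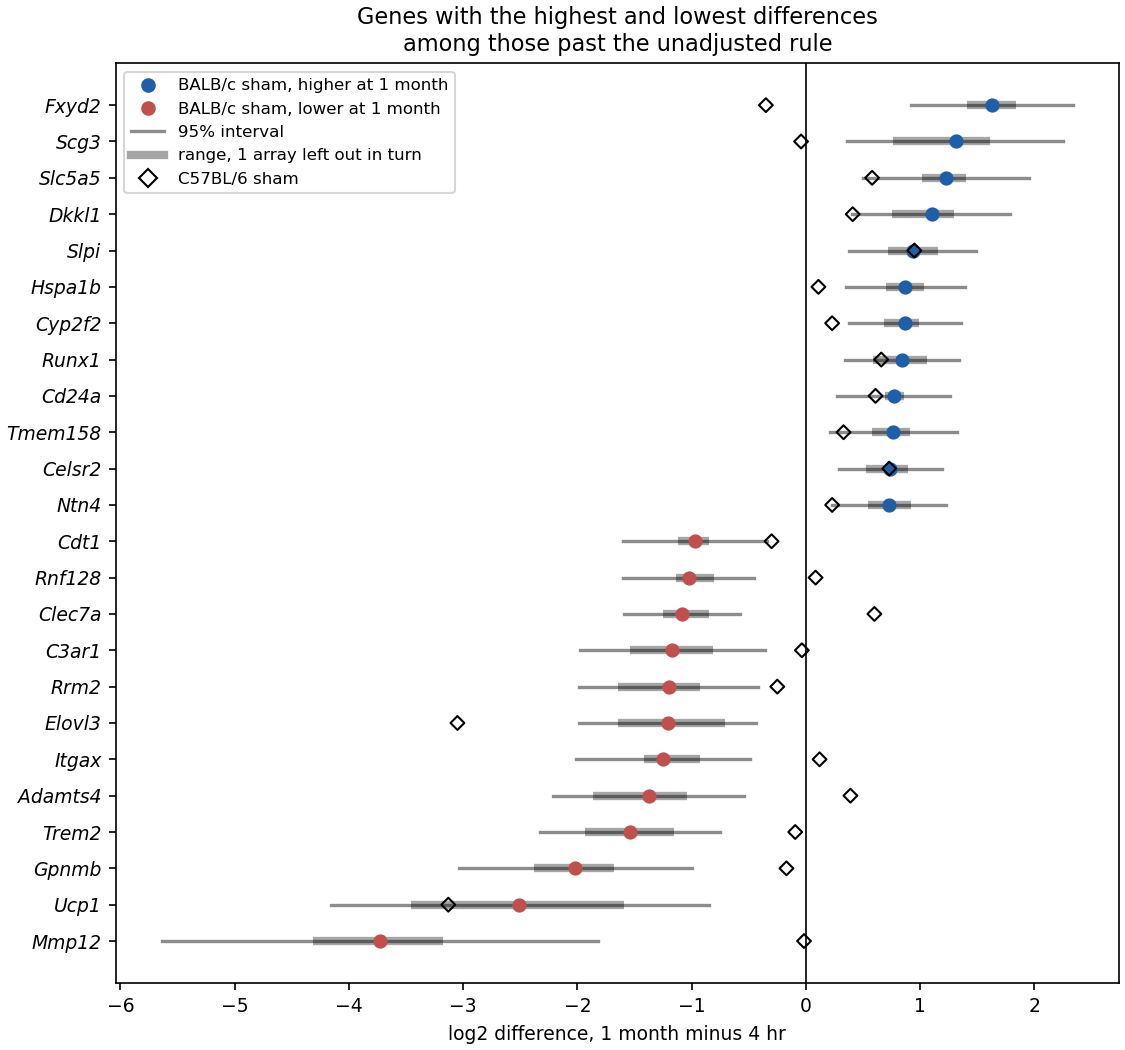
Differences, 1 month minus 4 hr, in log2 units, for the 12 highest and 12 lowest genes of the wider rule whose groups did not overlap. Filled points are BALB/c sham mice with 95% intervals (thin lines) and the range when 1 of the 6 arrays was left out in turn (thick lines), and diamonds are C57BL/6 sham mice. Mmp12 stands lowest at −3.73 and Fxyd2 highest at 1.63, while in C57BL/6 these genes lay at −0.016 and −0.35.

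Of the 12 lowest genes, 3 were on the macrophage list, Mmp12, Gpnmb and Trem2. Mmp12, a macrophage metalloelastase that cuts elastin, measured 8.51, 9.54 and 7.27 in 4 hr replicates 1, 2 and 3 and 4.77, 4.7 and 4.66 in the 1 month replicates. The 1 month mice were thus low and close together (SD 0.059), and the 4 hr mice were all higher and spread widely (SD 1.1). The difference was −3.73 (SE 0.91, adjusted p = 0.571). The 1 month levels were close to those of the whey gene Wap (4.29 to 4.58), so no fold is given. In bulk tissue, fewer cells of a type and less RNA per cell cannot be told apart, and this holds for every result that follows. Gpnmb, a lysosomal glycoprotein of lipid-laden macrophages, measured 7.33, 8.73 and 8.08 at 4 hr and 6.14, 5.68 and 6.25 at 1 month. Its groups did not overlap either, at a difference of −2.02 (SE 0.48, adjusted p = 0.571). Trem2, a lipid-sensing receptor of the same cells, measured 5.88, 7.45 and 6.68 at 4 hr and 5.43, 5.2 and 4.76 at 1 month, a difference of −1.54 (SE 0.38). The other Trem2 probe set differed by −0.15.

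Further receptors of phagocytes among the 12 lowest genes showed the same order, though Itgax was on the dendritic cell list and Clec7a and C3ar1 were on none. The beta-glucan receptor gene Clec7a measured 7.75, 8.13 and 8.21 at 4 hr and 7.09, 6.47 and 7.27 at 1 month, and was the one among these with the tightest 4 hr group (SD 0.24). Its difference was −1.08 (SE 0.24). Itgax, which encodes the integrin CD11c, measured 6.43, 7.41 and 6.47 against 5.54, 5.42 and 5.6 (−1.25, SE 0.36). For C3ar1, the receptor of complement fragment C3a, the values were 7.13, 8.59 and 7.88 against 6.87, 6.98 and 6.23 (−1.17, SE 0.38). Lysosomal enzymes among the 109 probe sets, chosen here after their values were seen, were the acid lipase Lipa (−0.64, SE 0.22) and the alpha-galactosidase Gla, whose 4 hr arrays read 5.64, 5.63 and 5.64 against 4.76, 5.16 and 5.08 (−0.64, SE 0.14).

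The upstream sequences of these genes are shown for Mmp12, Gpnmb, Trem2 and Clec7a, the 4 phagocyte genes that met the wider rule whichever of the 6 arrays was left out. They are the 250 bases before the RefSeq start (build GRCm38.p6, 5′ to 3′ on the gene's own strand), with the core GAGGAA of the macrophage factor PU.1, on either strand, in capitals. Mmp12 and Clec7a each have another annotated start, not printed. The other window of Mmp12 holds no such core. That of Clec7a overlaps the printed window almost fully and holds the same core, 90 bases before its own start.
Mmp12, chr9:7344147-7344396, + strand: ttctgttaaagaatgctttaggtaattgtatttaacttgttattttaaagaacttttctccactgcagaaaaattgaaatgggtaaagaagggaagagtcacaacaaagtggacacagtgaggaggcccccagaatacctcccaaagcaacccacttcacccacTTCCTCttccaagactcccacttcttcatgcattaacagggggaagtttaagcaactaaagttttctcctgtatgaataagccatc
Gpnmb, chr6:49036268-49036517, + strand: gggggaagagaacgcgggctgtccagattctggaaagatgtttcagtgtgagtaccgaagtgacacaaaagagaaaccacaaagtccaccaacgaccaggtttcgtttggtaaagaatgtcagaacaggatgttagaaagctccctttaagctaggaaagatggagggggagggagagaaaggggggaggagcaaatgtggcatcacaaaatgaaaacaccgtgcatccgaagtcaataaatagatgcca
Trem2, chr17:48346151-48346400, + strand: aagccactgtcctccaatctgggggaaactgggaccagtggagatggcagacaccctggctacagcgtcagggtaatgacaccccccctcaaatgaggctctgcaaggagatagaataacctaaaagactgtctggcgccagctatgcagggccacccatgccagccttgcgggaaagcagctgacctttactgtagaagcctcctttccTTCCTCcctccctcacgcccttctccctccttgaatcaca
Clec7a, chr6:129472780-129473029, − strand: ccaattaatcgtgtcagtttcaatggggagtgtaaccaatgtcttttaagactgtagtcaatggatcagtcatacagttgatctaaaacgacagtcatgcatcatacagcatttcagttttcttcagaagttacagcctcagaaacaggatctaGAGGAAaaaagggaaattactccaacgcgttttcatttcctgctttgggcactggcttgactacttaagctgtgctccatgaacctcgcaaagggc

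The core lay 86 bases before the start used for Mmp12, 40 before that of Trem2 and 96 before that used for Clec7a, and Gpnmb had none in this window. Of all 27025 genes with such a window 25.9% held it, as did 13 of the 22 genes of the macrophage list that had one (59.1%), which describes these letters only and was not matched for base composition. The E-box CACGTG, the D-box (TTACGTAA or TTATGTAA), the cyclic AMP element TGACGTCA and the CArG box, searched on both strands, were in none of the 4 printed windows, and in 6.02%, 0.931%, 1.55% and 1.47% of all 32851 windows. No motif of these 5 overlapped another in the printed windows.

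The list of 29 macrophage genes had a median difference of −0.37, and 27 of its genes were lower at 1 month, against a median of −0.015 and 54.0% lower over all 11807 genes, each taken at its brightest probe set. Of the 29, 3 met the wider rule (Mmp12, Gpnmb and Trem2; 0.347% of all genes did so in this direction) and 7 had groups without overlap and lower at 1 month (6.37% of all genes). The galectin gene Lgals3 measured 10.33, 11.65 and 10.6 against 9.66, 10.08 and 9.53 (−1.11, SE 0.38). The rest of the list ranged from −0.93 for Cd68, a lysosomal protein of macrophages (SE 0.5), and for the Fc receptor Fcgr1 (SE 0.83) to 0.24 for the endotoxin co-receptor Cd14 (SE 0.19). Between them, and chosen here after their values were seen, lay the receptor Csf1r (−0.37, SE 0.23), the complement genes C1qa (−0.2, SE 0.33) and C1qb (−0.25, SE 0.35) and the mannose receptor Mrc1 (−0.24, SE 0.37). Adgre1, which encodes a surface marker of mature macrophages, measured 7.53, 8.63 and 7.8 against 7.44, 7.51 and 6.65, a difference of −0.79 (SE 0.36).

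One 4 hr mouse carried much of the list. Its mean level was 8.88 in 4 hr replicate 2 against 7.77 and 7.86 in 4 hr replicates 1 and 3, and 7.68, 7.79 and 7.21 at 1 month. Without that array the list's median was −0.046 and 15 of the 29 genes were lower. Without 1 month replicate 3 the median was −0.15 with 19 genes lower, and without 4 hr replicate 1 it was −0.54. The 4 genes whose upstream sequences are given were chosen for meeting the wider rule in each fit that left out 1 array. Their ranges over these 6 fits are thus no separate support. Mmp12 ranged from −4.31 to −3.18, Gpnmb from −2.38 to −1.68, Trem2 from −1.93 to −1.15 and Clec7a from −1.25 to −0.85. They were among the 7 genes that met the wider rule in every such fit, with Fxyd2, Iqgap3 and Septin9.

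**Figure D2:**
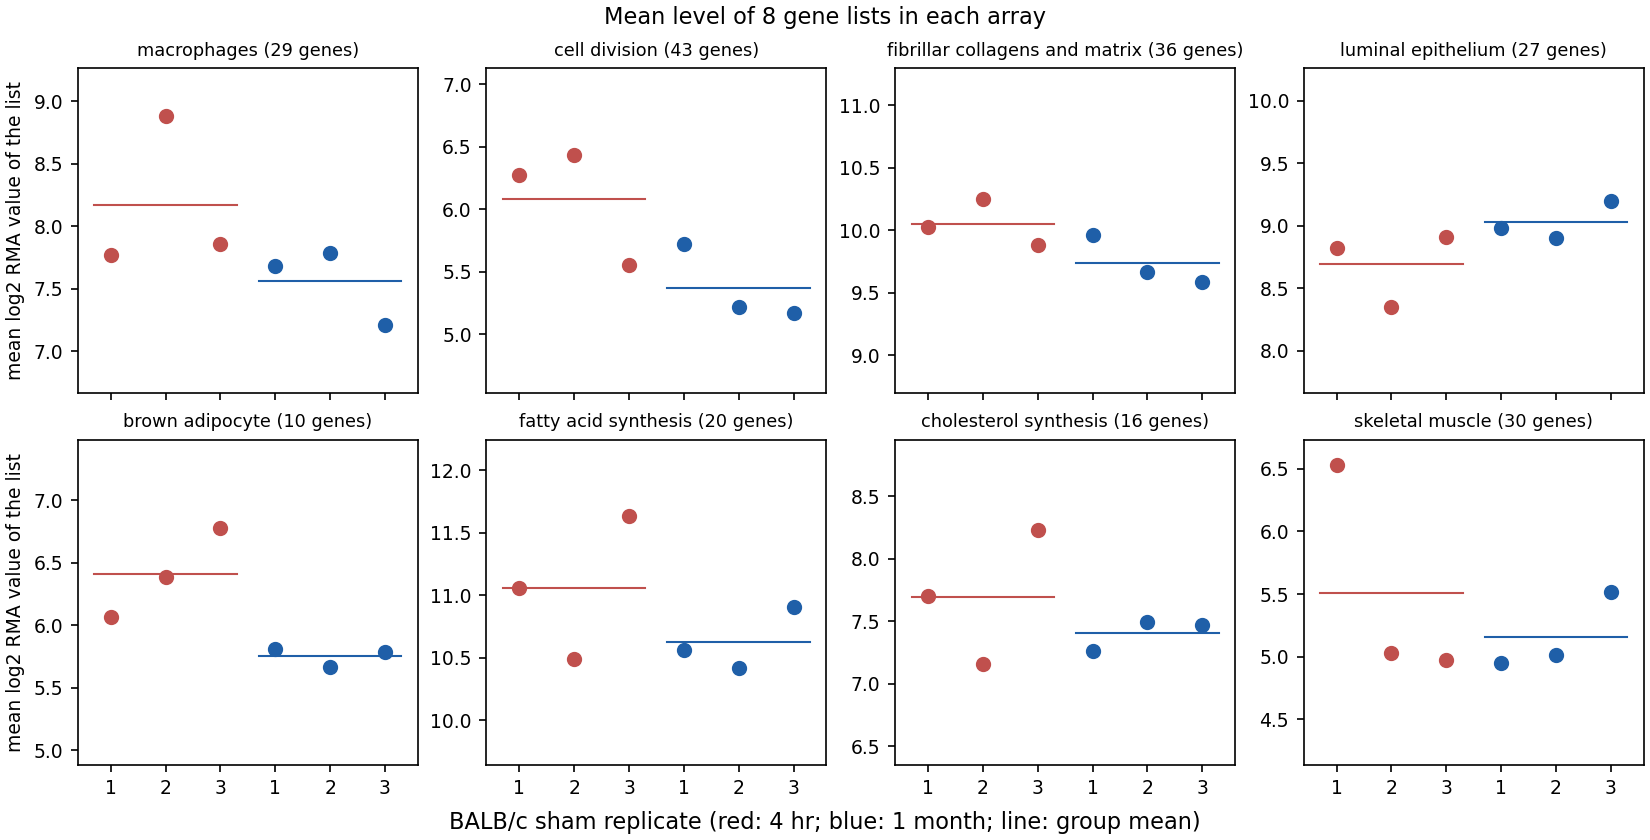
Mean log2 RMA value of 8 gene lists in each BALB/c sham array, replicates 1 to 3 at 4 hr (red) and at 1 month (blue), with the group means as lines and the same span of log2 units on each vertical axis. Macrophage genes stand out in 4 hr replicate 2 at 8.88 and muscle genes in 4 hr replicate 1 at 6.53, and the groups do not overlap in the brown adipocyte list.

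Cell division genes were lower at 1 month almost without exception. In the list of 43 genes the median was −0.63 and 42 genes were lower, 23 of them at an unadjusted p under 0.05 (3.82% of all genes in this direction), with 8 genes without overlap (6.37% of all genes). The list's mean level was 6.27, 6.43 and 5.55 at 4 hr and 5.72, 5.22 and 5.17 at 1 month, so the groups overlapped through 4 hr replicate 3 and 1 month replicate 1. With any single array left out, the median lay between −0.88 and −0.46 and at least 41 of the genes were lower.

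Among the licensing factors that prepare DNA for copying, Cdt1 measured 8.24, 8.04 and 7.91 at 4 hr against 7.17, 6.99 and 6.59 at 1 month at its brightest probe set. The groups lay apart by more than either spread (−1.15, SE 0.38). Cdc6, which loads the same helicase, differed by −0.63 (SE 0.21), at the low levels of 4.66, 4.73 and 4.58 against 4.11, 4.09 and 3.87. Rrm2, the ribonucleotide reductase subunit that limits nucleotide supply, measured 7.11, 7.05 and 5.77 against 5.36, 5.0 and 4.81 (−1.59, SE 0.54), and its other probe set 6.34, 6.55 and 5.14 against 5.07, 4.74 and 4.61 (−1.2, SE 0.37). The proliferation marker Mki67 measured 7.98, 8.44 and 6.81 against 7.38, 5.37 and 5.66. One 1 month mouse thus lay within the 4 hr range, and the difference was −1.61 (SE 0.67, adjusted p = 0.715). Top2a, the topoisomerase of dividing cells, overlapped in the same way (−1.23, SE 0.53), and its other probe set differed by −0.025. The mitotic kinesin Kif11 measured 5.24, 5.76 and 5.11 against 4.97, 4.63 and 4.94 (−0.52, SE 0.19).

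Matrix and fibroblast genes were lower as well, by less. Of 36 genes for fibrillar collagens and matrix, 29 were lower (54.0% of all genes were) with a median of −0.24, 6 without overlap (6.37% of all genes). Col11a1, a minor fibrillar collagen, measured 5.76, 5.39 and 5.83 against 4.68, 4.21 and 5.36 (−0.91, SE 0.3), and was the list's sole gene to meet the wider rule. The main collagen gene Col1a1 measured 12.38, 12.73 and 12.29 against 12.05, 11.53 and 11.56, without overlap (−0.75, SE 0.31). Col3a1 differed by −0.18 (SE 0.12). Tenascin C, Tnc, a matrix protein of remodelling tissue, overlapped (−0.99, SE 0.34), while Col15a1 did not (−0.43, SE 0.16), and the fibrillin gene Fbn2 overlapped (−0.96, SE 0.38). Adamts4, a protease of proteoglycans, measured 7.18, 7.56 and 5.93 against 5.7, 5.81 and 5.04 (−1.37, SE 0.4), though its second probe set differed by −0.13. The pericyte receptor Pdgfrb, chosen after its values were seen, measured 7.88, 7.5 and 7.33 against 7.06, 6.65 and 6.91 (−0.7, SE 0.15). The matrix list's median was −0.12 without 4 hr replicate 2, with 25 genes lower, and also without 1 month replicate 3, with 24 lower. The basement membrane list had a median of −0.078 with 11 of 15 genes lower, and the endothelial list of −0.038 with 13 of 20.

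Some genes of thermogenic fat were lower at 1 month, while others of the same list lay near 0. Ucp1, the uncoupling protein that makes heat in brown and beige adipocytes, measured 5.54, 7.52 and 9.29 at 4 hr and 4.88, 5.09 and 4.85 at 1 month. The 4 hr mice thus spanned nearly the whole range from low to high (SD 1.9), all 1 month mice were low (SD 0.13), and the difference was −2.51 (SE 0.79, adjusted p = 0.617). Elovl3, a fatty acid elongase induced in thermogenic fat, followed the same order with 4.88, 5.58 and 6.75 against 4.58, 4.32 and 4.67 (−1.21, SE 0.37). Cpt1b, the mitochondrial carnitine transferase of muscle and brown fat, measured 6.33, 6.25 and 7.04 against 5.6, 5.37 and 5.8 (−0.95, SE 0.27), and the cytochrome oxidase subunit Cox7a1 differed by −0.8 (SE 0.31). Cidea, a lipid droplet protein of brown adipocytes, differed by −1.15 (SE 0.49). The other 5 genes of the list were at 0.016 (Cox8b), −0.042 (Dio2), −0.025 (Fabp3), −0.1 (Kng1) and 0.2 (Slc27a2). In all, 8 of the 10 brown adipocyte genes were lower (median −0.45), 3 met the wider rule (0.347% of all genes) and 5 did not overlap (6.37%). None of the 10 met the wider rule without 4 hr replicate 3 (0 genes), nor without 1 month replicate 2. The list's mean level was 6.07, 6.39 and 6.78 at 4 hr and 5.81, 5.67 and 5.79 at 1 month, and its median stayed between −0.6 and −0.42 when any array was left out. Without 4 hr replicate 3, the difference of Ucp1 was −1.59 and that of Elovl3 −0.71, the smallest of the 6 fits.

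The 15 white adipocyte genes had a median of 0.078. Adipoq measured 13.51, 13.53 and 13.27 against 13.66, 13.56 and 13.63 (0.18, SE 0.082), the lipid droplet coat gene Plin4 differed by 0.57 (SE 0.18), and the fatty acid carrier Fabp4 by 0.11 (SE 0.076). The leptin gene Lep overlapped, with 9.1, 9.12 and 10.03 against 9.43, 9.69 and 8.99. Enzymes of fatty acid synthesis were lower in 16 of 20 genes (median −0.28), with Acaca, the acetyl-CoA carboxylase that opens the pathway, at 7.71, 6.87 and 8.05 against 6.39, 6.36 and 6.81 (−1.02, SE 0.4). Its partner Acacb differed by −0.89 (SE 0.33) and malic enzyme Me1 by −0.97 (SE 0.39), but Fasn by −0.25 (SE 0.16), Scd1 by −0.061 (SE 0.075) and the acyltransferase Gpam by 0.4 (SE 0.15). This list and the cholesterol synthesis list (median −0.29, 13 of 16 lower) were highest in 4 hr replicate 3, at 11.63 and 8.23, and without it their medians were −0.12 and −0.038, against −0.61 and −0.52 without 4 hr replicate 2, in which they were low. The fructose transporter Slc2a5, chosen after its values were seen, was also highest there, with 7.27, 6.32 and 8.91 against 5.81, 5.64 and 6.33 (−1.57, SE 0.54).

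Of the 12 highest genes, 3 were on a list, Cd24a (luminal), Runx1 (end bud) and Hspa1b (chaperones). Fxyd2, a small subunit that modulates the sodium pump, measured 6.01, 6.06 and 6.41 at 4 hr and 7.75, 8.24 and 7.38 at 1 month. All 1 month mice lay above all 4 hr mice by more than the spread of either group (SD 0.22 and 0.43), and the difference was 1.63 (SE 0.34, 3.1-fold higher, adjusted p = 0.571). Of its other probe sets, a pair differed by 1.45 and 1.56 and the last by 0.016. The design names of some Fxyd2 probe sets, those at 1.63 and 1.56 among them, mark probes that can also bind other transcripts. Slc5a5, the sodium iodide symporter that draws iodide into milk, measured 5.06, 5.54 and 4.96 against 6.27, 6.82 and 6.14 (1.23, SE 0.34). Slpi, a secreted protease inhibitor of epithelia, measured 7.82, 7.41 and 8.28 against 8.81, 8.75 and 8.76 (0.94, SE 0.26). The surface glycoprotein gene Cd24a measured 9.93, 10.06 and 9.87 against 10.87, 10.76 and 10.54 (0.77, SE 0.24) and differed by 0.54 (SE 0.21) at its brighter probe set. Celsr2, a cadherin of planar cell polarity, differed by 0.74 (SE 0.22), and the netrin gene Ntn4 by 0.73 (SE 0.24). The transcription factor gene Runx1 measured 5.82, 5.52 and 5.98 against 6.54, 6.18 and 7.12 (0.84, SE 0.24), with the other 4 probe sets between −0.048 and 0.69.

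In the list of 27 luminal genes, 24 were higher at 1 month (46.0% of all genes were) and the median was 0.29, with no gene at the wider rule and 5 without overlap (5.58% of all genes). Prom1, a membrane protein of hormone-sensing luminal cells, measured 7.82, 7.36 and 7.83 against 8.18, 8.87 and 8.81 (0.95, SE 0.37). Ly6d, which marks luminal progenitor lineages, overlapped (0.8, SE 0.41), while the groups of the zinc finger gene Trps1 met at 9.67 (0.41, SE 0.19), and Krt18 differed by 0.33 (SE 0.29). The luminal level was 8.82, 8.35 and 8.91 at 4 hr and 8.98, 8.9 and 9.2 at 1 month, lowest in 4 hr replicate 2, the mouse with the most macrophage transcript, and without that mouse the median was 0.12 with 8 genes lower. Whether the share of epithelium in the sampled tissue differed was not tested. Basal genes had a median of 0.14 (4 of 14 lower), which was −0.057 without 4 hr replicate 2 and −0.039 without 1 month replicate 3. The basal keratin gene Krt14 had a difference of 0.36 (SE 0.32), the stem cell marker Lgr5 of 0.5 (SE 0.17) and the smooth muscle actin gene Actg2 of −0.83 (SE 0.39; −0.45 without 4 hr replicate 1).

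Steroid receptor genes were low on these arrays. Esr1, the estrogen receptor gene, measured 5.08, 5.34 and 4.46 against 5.31, 4.91 and 4.7, a difference of 0.012 (95% interval −0.51 to 0.53). Pgr, the progesterone receptor gene, lay between 4.06 and 4.61 and Tnfsf11, which encodes its target RANKL, between 3.84 and 4.13, levels at which a change may not show (0.11, SE 0.18, and −0.15, SE 0.14). Wnt4, another progesterone target, measured 6.71, 6.0 and 6.6 against 7.4, 7.32 and 6.18, with overlap (0.53, SE 0.29). The hormone-sensing list had a median of 0.15, and the chemokine gene Cxcl14 differed by 0.43 (SE 0.17). Greb1, an estrogen target, was at 3.82, 3.73 and 3.74 against 3.94, 5.76 and 3.97, so that 1 mouse, 1 month replicate 2, held its difference of 0.79 (SE 0.35). Igfbp5, a binding protein of insulin-like growth factors, differed by 0.47 (SE 0.25).

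Milk genes were mixed, with 15 of 23 higher and a median of 0.1 (−0.043 without 1 month replicate 3). The caseins Csn2 and Csn3 differed by −0.12 (SE 0.22) and 0.1 (SE 0.34), and the whey genes Wap and Lalba by −0.17 (SE 0.1) and −0.09 (SE 0.12) at levels under 5. The iron carriers were higher, Ltf with 9.8, 10.03 and 10.29 against 10.9, 10.79 and 10.78 (0.78, SE 0.28) and Trf with 11.99, 11.82 and 12.01 against 12.32, 12.16 and 12.49 (0.38, SE 0.12). Btn1a1, a protein of the milk fat globule, overlapped (1.35, SE 0.49; −0.061 to 0.16 at its dimmer probe sets), the lipase gene Cel differed by −0.62 (SE 0.22; −0.36 without 4 hr replicate 1), and Elf5, the factor that specifies alveolar cells, by 0.41 (SE 0.41).

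Among growth factor genes, Socs2, a feedback inhibitor induced by growth hormone and prolactin, measured 7.83, 7.7 and 7.11 against 8.16, 9.24 and 8.07 (0.94, SE 0.31). The insulin receptor substrate gene Irs1 measured 10.79, 10.54 and 10.31 against 10.92, 11.39 and 11.24 (0.64, SE 0.17). Igf1 overlapped, at 11.01, 11.09 and 10.56 against 11.23, 11.21 and 11.05 (0.28, SE 0.15), and Igfbp2 differed by −0.88 (SE 0.47; −0.55 without 4 hr replicate 1). Of the genes known from pubertal end buds, Msx2, a homeobox gene, differed by 0.63 (SE 0.25), Stat5a by 0.52 (SE 0.21) and Pth1r, the receptor of parathyroid hormone related protein in the stroma, by −0.87 (SE 0.3), with 17 of 24 genes higher (median 0.19).

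Other genes of the upper end were on no list. Scg3, a granin of secretory vesicles, measured 7.97, 7.37 and 8.58 against 10.38, 8.75 and 8.72, and without 1 month replicate 1 its difference of 1.31 (SE 0.45) was 0.76. Dkkl1, a dickkopf-like secreted protein, measured 5.4, 5.4 and 5.62 against 6.15, 7.27 and 6.28 (1.1, SE 0.33). The P450 gene Cyp2f2 differed by 0.87 (SE 0.23) and the membrane protein gene Tmem158 by 0.76 (SE 0.26). At the lower end the ubiquitin ligase gene Rnf128 measured 5.7, 6.32 and 5.65 against 4.82, 4.89 and 4.9 (−1.02, SE 0.27), and its other probe set differed by −1.2.

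The inducible chaperone gene Hspa1b was higher at all 3 of its probe sets, which may also bind its near-identical copy Hspa1a. They differed by 0.83, 0.87 and 0.95, the brightest with 10.05, 9.53 and 9.9 against 10.53, 11.1 and 10.33. The endoplasmic reticulum genes Hspa5 (0.37, SE 0.11) and Herpud1 (0.45, SE 0.12) and the co-chaperone Dnajb1 (0.33, SE 0.09) differed in the same direction without overlap, and 18 of the 23 chaperone genes were higher (median 0.12). Of the 19 hypoxia targets, 12 were higher and 7 lower, with a list median of 0.16. The glycolytic regulator Pfkfb3 differed by 0.57 (SE 0.2), Rab20 by 0.52 (SE 0.18), the mitophagy receptor Bnip3 by 0.42 (SE 0.15) and the glucose transporter Slc2a1 by 0.49 (SE 0.19). Glucocorticoid targets had a median of 0.26, with 12 of 18 genes higher and 6 lower. Among the higher were Cebpd at 0.53 (SE 0.19), Sgk1 at 0.5 (SE 0.23), Nfkbia at 0.38 (SE 0.18) and Pdk4 at 0.66 (SE 0.37).

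Clock and immediate early genes are known to follow the hour and the handling at sampling. Per2 measured 6.71, 6.63 and 7.97 against 8.01, 7.9 and 7.71, with 4 hr replicate 3 at the 1 month level (0.77, SE 0.27). Dbp overlapped with 9.61, 8.5 and 9.85 against 10.2, 9.75 and 9.17 (0.38, SE 0.3), as did Per1 (0.49, SE 0.32) and Arntl (−0.28, SE 0.21), while Nr1d2 differed by 0.39 (SE 0.14) without overlap, Hlf by 0.37 (SE 0.18) and Tef by 0.28 (SE 0.17). The other Hlf probe set measured 6.33, 6.17 and 6.74 against 7.06, 7.06 and 6.98 and met the wider rule (0.62, SE 0.17). The clock list had a median of 0.075, with 12 of 19 genes higher. Fos measured 8.04, 8.58 and 9.1 against 8.63, 9.08 and 8.63 (0.21, SE 0.2) and Egr1 9.52, 8.8 and 9.22 against 8.68, 9.92 and 9.24 (0.1, SE 0.33), with a list median of 0.031 over 32 genes. The sampling hours were not given in the sources used here, and their part was not tested.

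Lymphocyte genes were at low levels in these node-free glands. The T cell receptor chain gene Cd3e measured 5.67, 5.88 and 6.19 against 5.67, 5.72 and 6.09 (−0.087, SE 0.36), and the T and NK list had a median of −0.077 and the B and plasma cell list of −0.018. Granulocyte genes had a median of −0.076, although S100a8 measured 5.72, 7.24 and 5.38 against 4.92, 4.96 and 4.91 (−1.19, SE 0.6) and the mast cell tryptase gene Tpsab1 5.3, 8.4 and 6.43 against 5.84, 5.37 and 5.06 (−1.29, SE 0.72; −2.0 without 4 hr replicate 1), each led by 4 hr replicate 2. Interferon-induced genes were high in 1 mouse of each time, 4 hr replicate 2 (mean level 8.16) and 1 month replicate 2 (8.02), against 6.97 to 7.51 in the other 4, and their median was 0.071. Targets of p53 had a median of −0.027, with Cdkn1a at 6.33, 7.75 and 7.55 against 6.61, 7.18 and 6.18 (−0.55, SE 0.33). Without 4 hr replicate 1 the difference of Cdkn1a was −1.0 (SE 0.29), past the wider rule. Oxidative phosphorylation genes had a median of −0.04, fatty acid oxidation genes of 0.027, Wnt pathway genes of −0.028 and ribosomal protein genes of 0.074. Dendritic cell and MHC class II genes had a median of 0.057, nerve genes of −0.1 and liver genes of −0.045.

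Skeletal muscle genes were lower in 26 of 30 cases (median −0.28), with myosin Myh4 at 7.36, 4.47 and 4.28 against 4.14, 4.12 and 4.39. This rested on 4 hr replicate 1, without which the median was 0.12 and 12 genes were lower. Without that array, 165 probe sets met the wider rule, of which 68 were among the 109, and none passed an adjusted p of 0.05. The differences without it were −3.69 for Mmp12, −2.38 for Gpnmb, −1.93 for Trem2, −3.46 for Ucp1 and 1.55 for Fxyd2. Epidermis and hair genes had a median of −0.16 with 17 of 21 lower. Their mean level was 5.18 in 4 hr replicate 2, the mouse with the highest macrophage level, against 4.57 to 4.7 in the other 5, and without it the median was −0.032 with 11 lower. The epidermal genes Dmkn, Lor and Krt77 reached 6.61, 5.8 and 6.33 at 4 hr against at most 4.19, 4.01 and 4.73 at 1 month. Their part in the macrophage difference was not tested. Erythroid genes had a median of −0.17.

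The irradiated BALB/c mice of the plate give the range of these genes beside the sham mice. Mmp12 lay between 4.99 and 8.45 in LD 4 hr mice, at 5.0 and 7.44 in LD 1 month mice, between 5.67 and 8.86 in HD 4 hr mice and between 4.96 and 6.23 in HD 1 month mice, so that the 4 hr sham mice, at 7.27 to 9.54, overlapped some irradiated mice, while all 3 sham mice at 1 month were below all irradiated ones. Gpnmb was at 5.39 to 6.53 in LD 4 hr, 5.81 and 6.5 in LD 1 month, 6.37 to 8.93 in HD 4 hr and 5.93 to 6.54 in HD 1 month mice, against 7.33 to 8.73 in sham mice at 4 hr. Fxyd2 was at 6.98 to 8.65 in LD 4 hr and 6.27 to 7.35 in HD 4 hr mice, against 6.01 to 6.41 in sham mice at 4 hr. For Slc5a5 the 4 LD mice at 4 hr (6.14 to 7.25) lay at the level of the sham mice at 1 month (6.14 to 6.82), and above those at 4 hr (4.96 to 5.54), while HD mice at 4 hr (4.44 to 5.31) and at 1 month (4.64 to 5.63) lay with the latter. A comparison of irradiated with sham mice at 4 hr shares the 4 hr sham arrays used here. The sham arrays also stood in plate columns 1 to 5, and the irradiated ones in 6 to 12. These levels are thus given side by side without a test.

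**Figure D3:**
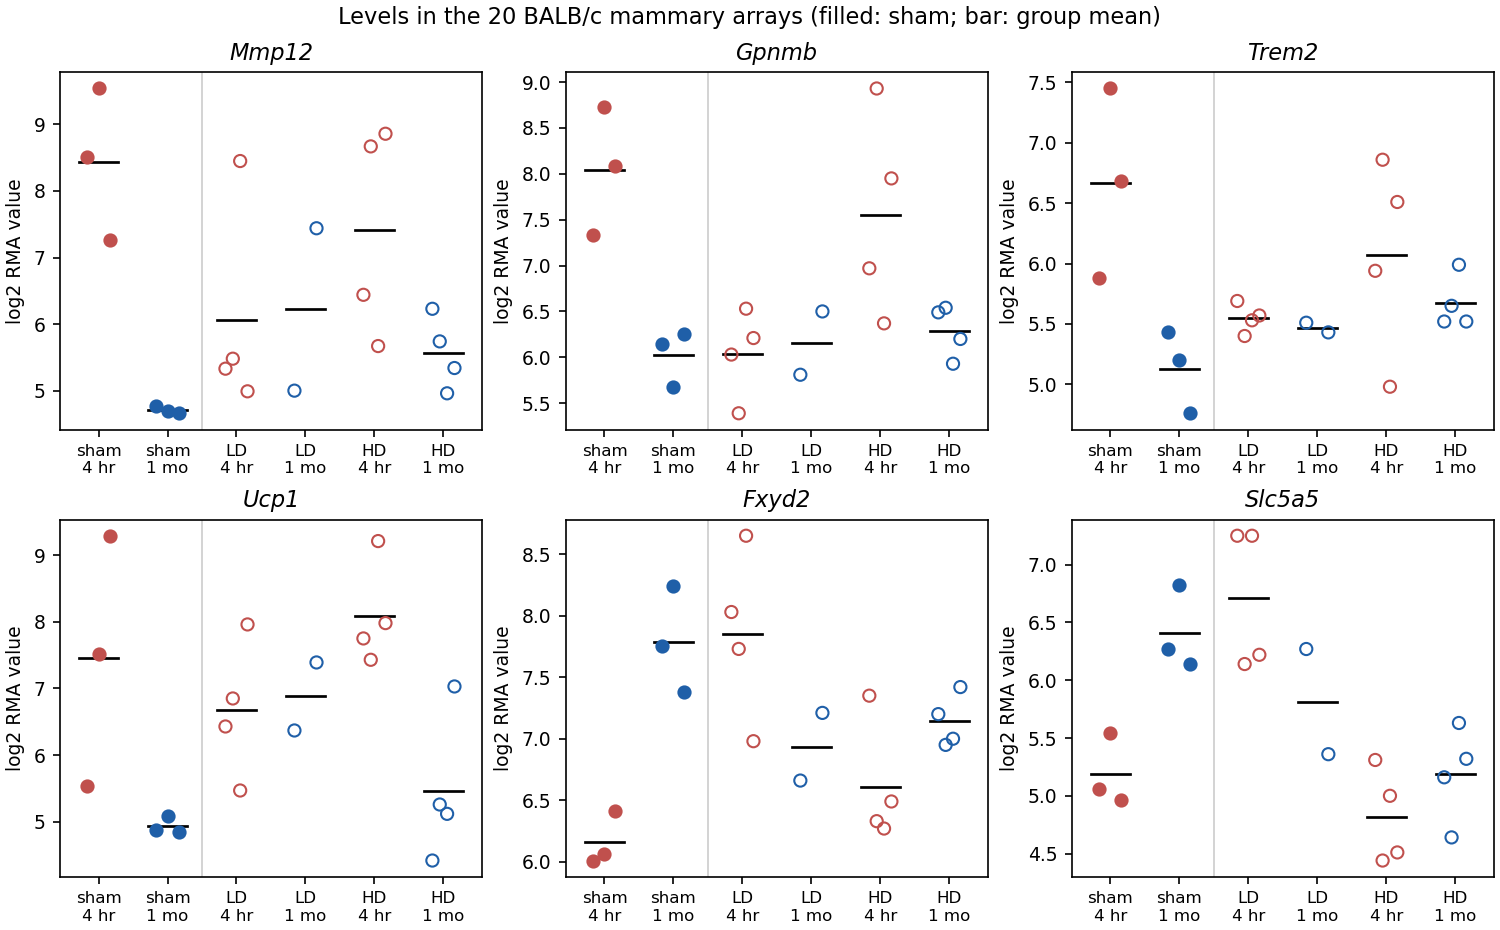
Log2 RMA values of 6 genes in the 20 BALB/c mammary arrays by dose and time, sham arrays filled and irradiated arrays open, red at 4 hr and blue at 1 month, with group means as bars. For Mmp12, Gpnmb, Trem2 and Ucp1 the filled red points lie above the filled blue ones, and for Fxyd2 and Slc5a5 below them, and there the LD 4 hr points lie above the 4 hr sham points.

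The time contrast was also computed in irradiated BALB/c mice, with no sham array in it. It holds the response to radiation, the interval and the plate position, which cannot be told apart. The HD arrays stood in plate columns 6 to 8 at 4 hr and 9 to 12 at 1 month. The LD arrays stood in columns 9 to 12 at 4 hr and in 6 and 8 at 1 month. In HD mice the luminal level was 6.82 to 8.01 at 4 hr, against 8.35 to 8.91 in sham mice. The p53 targets of HD mice had a median of −0.63 from 4 hr to 1 month. Of the 48 probe sets higher at 1 month in sham mice, 42 were higher at 1 month in HD mice too (52.4% of all probe sets were) and 14 in LD mice (54.1% of all), with medians of 0.37 and −0.12. Of the 61 lower, 32 were lower in HD mice (47.6% of all were) and 32 in LD mice (45.9%). Both rules were met by 8 higher and 11 lower probe sets in HD mice, 16.7% and 18.0% of the sham lists and 2.8% and 4.74% of the HD lists, and by 0 and 2 in LD mice. Over all probe sets, the wider rule held in HD mice for 1.26% as higher and 1.03% as lower, and in LD mice for 0.212% and 0.402%. Cd24a was higher in HD mice by 1.44 (adjusted p = 0.0012), Socs2 by 1.41 (adjusted p = 0.0116) and Cpt1b lower at −1.27 (adjusted p = 0.00983). Ucp1 differed by −2.63 there (adjusted p = 0.0503), Elovl3 by −1.3 (adjusted p = 0.0412), and Mki67 by 1.32 in the opposite direction to sham mice (adjusted p = 0.221).

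C57BL/6 sham mice, the closest comparison, had 643 probe sets at an adjusted p under 0.05 (2.84%), 494 lower (2.18%) and 149 higher (0.659%) at 1 month, but 0 without C57BL/6 4 hr replicate 2, 25 without 1 month replicate 2 and 30 without 1 month replicate 3. The difference between the strains in the time change was itself tested, in all 43 MG arrays, and no probe set passed (smallest adjusted p 0.169, 0.0% called, 1954 or 8.64% at an unadjusted p under 0.05). For Mmp12 the strains' changes differed by −3.71 (SE 0.92, adjusted p = 0.407), for Trem2 by −1.44 (SE 0.4, adjusted p = 0.407) and for Clec7a by −1.69 (SE 0.47, adjusted p = 0.407), with C57BL/6 values of −0.016, −0.093 and 0.6. Ucp1 was lower at 1 month in both strains (−3.13 in C57BL/6, adjusted p = 0.193), and so were Elovl3 (−3.05, adjusted p = 0.0253), Cpt1b (−1.78, adjusted p = 0.0885) and Acaca (−1.9, adjusted p = 0.0711). The mean level of the brown adipocyte list in C57BL/6 sham mice spread from 6.4 to 9.06 at 4 hr. It overlapped that at 1 month (6.0 to 6.64). Slpi (0.95), Celsr2 (0.73), Cd24a (0.61), Runx1 (0.66), Socs2 (1.42) and Irs1 (0.77, adjusted p = 0.0225) were higher at 1 month there too. Fxyd2 (−0.35) and Scg3 (−0.042), the genes with the highest differences in BALB/c, were not.

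**Figure D4:**
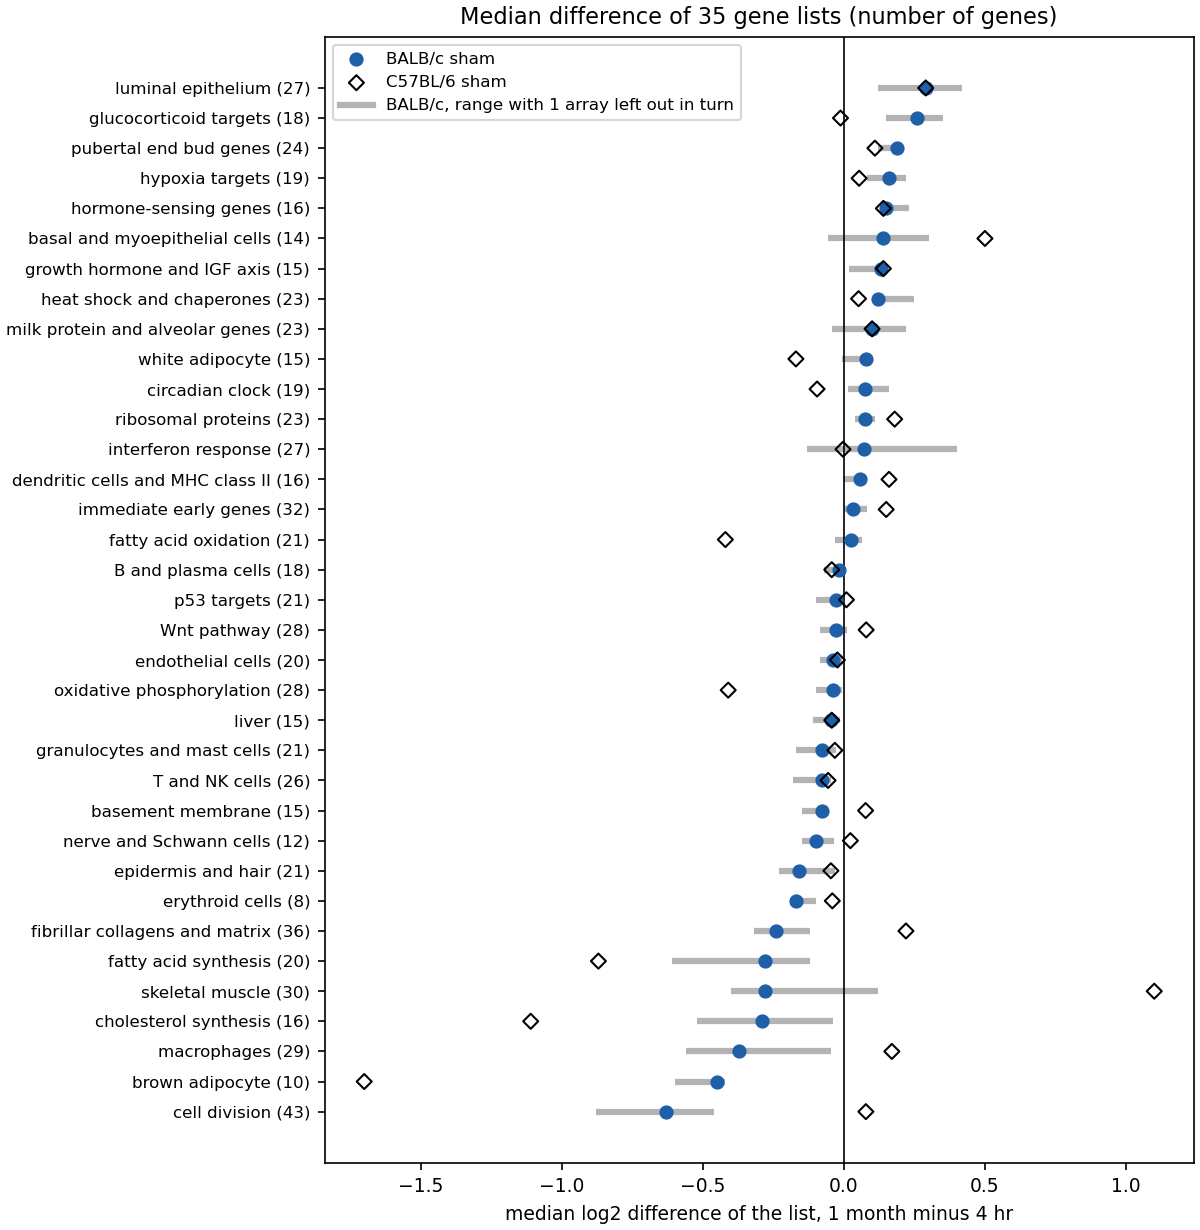
Median difference, 1 month minus 4 hr in log2 units, of 35 gene lists in BALB/c sham mice (points, with grey ranges over the 6 fits without 1 array) and C57BL/6 sham mice (diamonds). Cell division, brown adipocyte and macrophage genes are lowest in BALB/c at −0.63, −0.45 and −0.37, and in C57BL/6 these lists stand at 0.078, −1.7 and 0.17.

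By lists, the strains lay close for luminal genes (0.29 in each), hormone-sensing genes (0.15 and 0.14 in C57BL/6) and milk genes (0.1 in each). They lay apart, in values and with no test of the lists, for cell division (−0.63 and 0.078), macrophages (−0.37 and 0.17) and matrix (−0.24 and 0.22). The same held for brown adipocyte (−0.45 and −1.7), fatty acid synthesis (−0.28 and −0.87), cholesterol synthesis (−0.29 and −1.11) and oxidative phosphorylation (−0.04 and −0.41). The cell division level of C57BL/6 mice spread from 5.41 to 6.59 at 4 hr and from 5.2 to 7.26 at 1 month. The macrophage median of BALB/c was −0.046 without 4 hr replicate 2. Skeletal muscle genes had a median of 1.1 in C57BL/6, where they reached a mean level of 8.72 in 1 of the 1 month arrays against 4.84 to 4.97 at 4 hr. Of 48 probe sets higher in BALB/c, 38 were higher in C57BL/6 as well (51.5% of all probe sets were) and 5 met the wider rule in both, 10.4% and 5.1% of the respective lists. Of the 61 lower, 35 were lower there (48.5% of all) and 7 met it in both, 11.5% and 1.77%, where the rule held in C57BL/6 for 0.433% of all probe sets as higher and 1.75% as lower.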

How the data were processed

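RNA of whole MGs was hybridised to Affymetrix HT_MG-430A arrays, 1 mouse per array. The authors background-corrected, normalised and summarised the probes by RMA and deposited log2 values for each probe set, which were used as deposited. Per the labels, arrays were grouped by strain, dose and time. The number of arrays limits the precision, and p-values measure the spread between these mice.

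Contrasts were fitted with limma 3.58.1 in R 4.3.3 on the 20 BALB/c mammary arrays, which share 1 estimate of the spread, with eBayes and Benjamini-Hochberg adjustment over 22626 probe sets. The contrast of the strains was fitted on all 43 mammary arrays. The fit was tested on simulated data with independent noise for each probe set, so not for genes that move together in 1 mouse. Of the probe sets, 18003 had 1 gene symbol, 287 several and 4336 no name here, and none of the latter kinds was named. Gene lists used each gene's brightest probe set.

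Named genes were the 12 highest and 12 lowest genes without overlap at the wider rule, the 4 members of a described list with the smallest p, and a list of marker genes. Exceptions are said to be chosen after their values were seen. The members, the 35 lists and the choices of test were made with earlier results of these data known. The PU.1 core was chosen after the values were seen. Promoters came from RefSeq (GRCm38.p6), where all 4 genes asked for were found.

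Alternatives changed the arrays in the fit, array weights, the prior variance, plate position, a replicate block, normalisation, centring, a level filter, the probe set per gene and each array in turn.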

Additional observations from a re-analysis of the deposited data

Results flagged for a closer look

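Among the 4 BALB/c LD mice at 4 hr, 1 stood far above the others for Mmp12, at 8.45 against 4.99, 5.33 and 5.48. The gap was 0.86 of the group's range, beyond Dixon's critical value for 4 samples. Chance passes this limit in about 1 of 20 groups chosen beforehand. This group was flagged after the values were seen, so that rate does not hold for it. This mouse lay within the range of the sham mice at 4 hr, and the cause was not tested.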

How the results depend on the processing

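No probe set passed an adjusted p of 0.05 under any alternative but 2. With the 13 sham arrays of both strains alone 1 passed, Mmp12 (−3.73, SE 0.39, adjusted p = 0.00783). Leaving out 1 array gave 0 to 1, the 1 being Map3k5 (0.74, SE 0.097, adjusted p = 0.0182) without 1 month replicate 1. The 109 probe sets of the wider rule became 63 above the median level, 66 with 1 probe set per gene and 105 to 188 without 1 array (165, 169 and 188 without 4 hr replicates 1, 2 and 3), and 91 to 130 otherwise. Centring each array on its median turned the split from 48 higher and 61 lower to 62 and 51. It was 47 and 141 without 4 hr replicate 3 and 89 and 54 without 1 month replicate 3. The main fit did not pair mice by replicate number. Correlations of deviations were 0.017, 0.28 and 0.269 for the same numbers, against −0.31 to 0.0713 for different ones. By these values 4 hr replicate 1 was closest to 1 month replicate 3. Each mouse gave its glands at 1 time only, so the numbers cannot mark the same mouse. Deviations from a mean of 3 arrays are tied to each other, so whether the numbers mark another link was not settled. The replicate block gave 0 at the adjusted p and 130 at the wider rule. In C57BL/6 the counts ran from 0 to 733 and, at the wider rule, 237 to 653 without 1 array. The test between strains gave 0 to 1 (Uqcr10, adjusted p = 0.0447, without C57BL/6 4 hr replicate 3) and 109 to 418.

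Of 179 named probe sets, those that turned sign lay near 0 or rested on 1 mouse. With array weights Lep was at 0.13 and Egr1 at −0.11. Leaving out 1 array gave ranges of −0.22 to 0.051 for Cd3e, −0.34 to 0.12 for Csn2, −0.26 to 0.42 for Csn3, −0.98 to 0.15 for Cxcl10, −0.013 to 0.33 for Cyp2e1, −0.03 to 0.65 for Dbp, −0.22 to 0.39 for Egr1, −0.02 to 0.8 for Elf5, −0.24 to 0.2 for Esr1, −0.06 to 0.47 for Fos, −0.18 to 0.021 for Lalba, −0.21 to 0.26 for Lep, −0.056 to 0.21 for Pgr, −0.76 to 0.016 for Phlda3 and −1.06 to 0.053 for Tnni2. The causes were not tested.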

Other observations

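Single mice stood apart in whole groups of genes, counted after the data were seen as probe sets more than 1.5 log2 units above or below all other 5 sham arrays. In 4 hr replicate 1 there were 13 above, of 10 genes, among them the muscle genes Myh4 (7.36 against 4.12 to 4.47) and Acta1 (9.98 against at most 7.56). In 4 hr replicate 2 there were 40, of 31 genes, led by Slfn3 (8.02 against 3.9 to 4.41), Slfn4 (10.64 against at most 7.69), Ms4a4c (9.44 against at most 6.51), the epidermal gene Dmkn (6.61 against at most 4.19), the neutrophil gene S100a9 (7.51 against at most 5.12) and the Fc receptor gene Fcgr4 (6.95 against at most 4.65). This is the mouse in which the macrophage list was highest.

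In 4 hr replicate 3 there were 18 above, of 15 genes, with the insulin-induced hepatokine gene Angptl8 (10.75 against 5.82 to 7.7), the acyltransferase gene Mogat2 (8.0 against at most 5.1) and Ucp1. Below all others there were the metabolite receptors Hcar2 (6.04 against 7.78 to 8.21) and Ffar2 (5.76 against 7.43 to 8.22). In 1 month replicate 2 there were 13 above, of 10 genes, with the amine oxidase gene Aoc1 (9.62 against 4.11 to 4.61), the serotonin enzyme gene Tph1 (8.92 against at most 5.74) and the tryptophan enzyme gene Ido1 (10.18 against 5.04 to 7.51), and Cited1, an epithelial cofactor of the estrogen receptor, lay below (7.83 against 9.5 to 10.62). The other 2 mice had 1 probe set each, Scg3 in 1 month replicate 1 and the matricellular gene Ccn2 (9.34 against 6.99 to 7.82) in 1 month replicate 3. What set these mice apart was not tested.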
